A study of Drosophila melanogaster with 5 samples.

Results

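The genes described here are the nuclear-encoded subunits of oxidative phosphorylation, chosen by gene name from the table of annotated coding sequences (CDSs) after the isoform ending was removed. Of 60 names listed, the table held 57 genes out of 13967 in all, and 56 of them had values. The names CG2249, CG14235 and CG13240 did not match and were not analysed here, and CG40002, on the heterochromatic arm 3LHet, was listed without values. The 57 genes comprised 28 of complex I, 3 of complex II, 8 of complex III, 8 of complex IV, 9 of ATP synthase (complex V) and cytochrome c. Where a gene had several CDSs the longest was used. A small open reading frame (smORF) was a CDS of at most 100 aa, or 303 nt with the stop codon, and 14 of the 57 genes met this limit. This was 24.6% of the subunit genes and 5.79% of all genes. The subunits measured 55 to 731 aa with a median of 149 aa, against 392 aa for all genes.

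Oxidative phosphorylation moves electrons from NADH and succinate through complexes I and II, ubiquinone, complex III and cytochrome c to complex IV, which reduces oxygen. The protons pumped on the way drive ATP synthase, whose rotating stalk makes the catalytic head release ATP. Some core subunits are encoded by the mitochondrial genome, whereas the remaining core subunits and the many small accessory subunits are nuclear-encoded, made by cytoplasmic ribosomes and imported. The small accessory subunits often have a single membrane-spanning helix and lie around the core.

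The study applied Poly-Ribo-Seq, ribosome profiling after polysome fractionation, to S2 cells, a male embryonic, hemocyte-like Drosophila line. The cells received cycloheximide, which holds ribosomes on mRNA, shortly before harvest. Small polysomes, with 2 to 6 ribosomes on an mRNA, were footprinted in 2 separate experiments called extensive and initial, and large polysomes, with 7 or more ribosomes, and rRNA-depleted all polysomes in 1 library each, beside poly(A)-selected total cytoplasmic mRNA. As the study describes it, large polysomes belonged to the initial experiment, and the extensive repeat covered small polysomes alone. Extensive against large polysomes thus also differs by experiment, and the fit did not pair the libraries. All cells were of 1 genotype and condition, the study describes the small-polysome experiments as biological replicates, and p-values rest on the spread between those 2 libraries only. Values are RPKM, a density scaled to CDS length and library size, which sets CDSs of different length on one scale. Of 2 values given for small polysomes, the first is from the extensive and the other from the initial experiment.

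The steps between RPKM values gave the reads each library was divided by, 9160000 in the extensive and 5498000 in the initial small-polysome library. The large-polysome library had 2625000, the all-polysome library 3190000 and the mRNA 4560000. A subunit other than CG15434 and CG30354 had at least 80 reads in all polysomes and at least 21 in large polysomes, the shallowest library. Of 8 hemocyte markers found, 7 reached 1 RPKM in mRNA, up to 3328 RPKM for Nplp2, and Hml was at 0.0190 RPKM. Of 11 markers of other cell types, 3 reached 1 RPKM in mRNA, 5 were at 0 and the highest was at 2.02 RPKM. Footprints separated them less well. Act88F had 16.6 and 16.4 RPKM in small, 36.0 in large and 22.2 in all polysomes. The values of elav were 3.91 and 9.27 RPKM in small, 12.1 in large and 8.85 in all polysomes. In contrast, vas, Cyt-c-d, Lsp1beta and Yp1 were at 0 in every library.

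The first question was how strongly these genes were transcribed and occupied by ribosomes. The listed nuclear-encoded subunits ranked near the top of every library. Their median percentile among 13842 genes was 97.4 in extensive and 98.1 in initial small polysomes, 94.1 in large polysomes, 96.7 in all polysomes and 97.2 in mRNA. In all polysomes 52 of 56 lay in the top 10%, and the subunits held 1.22% of the reads on CDSs, against 1.44% in mRNA. The highest of the listed subunits was ATPsyn-gamma in initial small polysomes, all polysomes and mRNA, CoVIII in extensive small polysomes and ATPsyn-beta in large polysomes. CG1746, the c subunit of ATP synthase outside the list, lay above them in small polysomes (1663 and 2447 RPKM) and in all polysomes (1424 RPKM).

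The study's criteria for translation were met by nearly all subunits. A CDS passed with a density of at least 12 RPKM (the study's limit rounded up to a whole number), a coverage of at least 0.57 (the fraction of the CDS under footprints) and at least 5 reads. In extensive and initial small polysomes and in all polysomes 54 of 56 subunits passed, against 35.5%, 29.3% and 38.2% of all genes. In large polysomes 53 passed, against 23.1% of all genes, and all 4 libraries were passed by 53 subunits, against 20.4%.

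The exceptions were CG15434, CG30354 and CG8680. CG15434, the counterpart of human NDUFA2 in the peripheral arm of complex I, was listed at 0 RPKM in every library, and 0 reads allowed up to 3.27 RPKM in all polysomes and 2.28 RPKM in mRNA (3 reads, counting error only). CG30354, at chr2R:4564840-4565100, plus strand (FlyBase Release 5 coordinates, as all others here), is a single-exon gene of the family of human UQCRH, the acidic hinge protein of complex III. It had 9.62 and 0 RPKM in small polysomes, 0 in large polysomes, 12.01 in all polysomes and 0 in mRNA. Its 10 reads in all polysomes covered a fraction of 0.146 of the CDS. CG8680, counterpart of human NDUFS6, missed in large polysomes alone, where it had 29.0 RPKM at a coverage of 0.525.

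**Figure D1:**
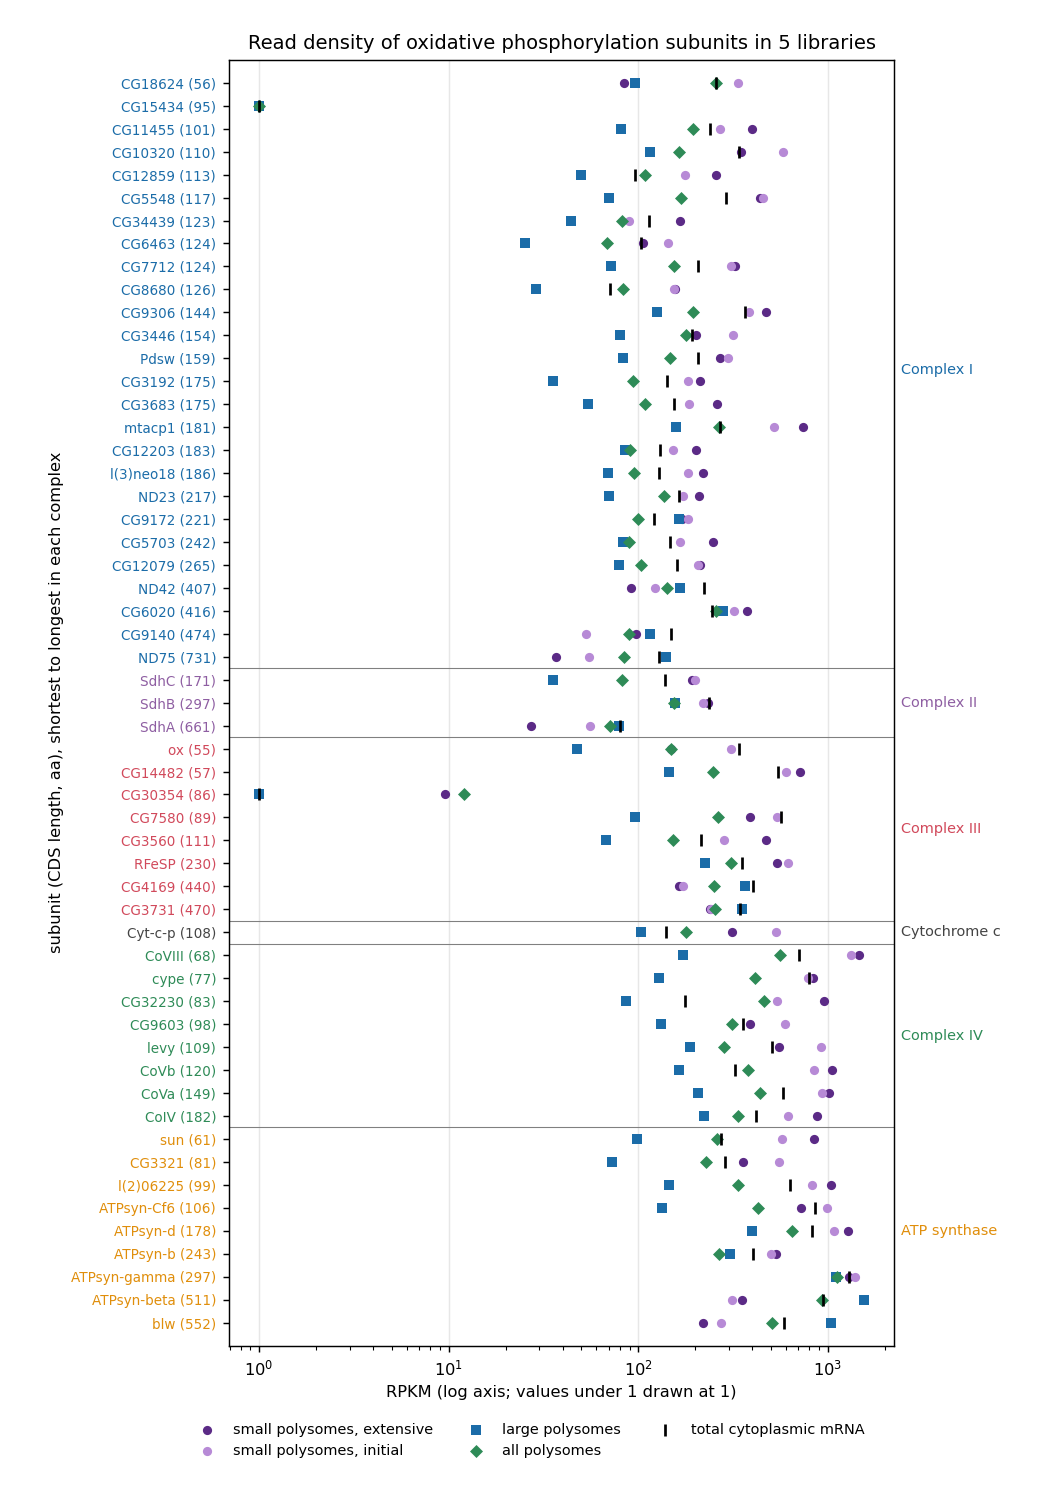
RPKM (log axis) of 55 subunits in the 5 libraries, in rows by complex and by CDS length, with 1 symbol per library and values under 1 drawn at 1. In most rows both small-polysome points lie right of the large-polysome square, and the longest subunits of complexes I, II, III and ATP synthase show the opposite order.

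The levels followed the complexes. In all polysomes the median was 109 RPKM over 26 complex I subunits with reads (68.5 to 267 RPKM), 82.6 over the 3 subunits of complex II (70.9 to 155), 250.0 over 7 of complex III without CG30354 (149 to 310.3), 394 over 8 of complex IV (282 to 557) and 431 over 9 of ATP synthase (227 to 1121). By the longest CDS, none of the complex I subunits reached the lowest complex IV subunit, levy, in all polysomes. The highest of complex I, mtacp1, and levy overlapped within 95% counting error alone (243 to 292 and 251 to 316 RPKM). The shorter CDSs of mtacp1, at 308 and 292 RPKM, lay above levy. In mRNA the same complexes overlapped, at 70.8 to 366 RPKM for complex I and 177 to 798 RPKM for complex IV, and 11 complex I subunits lay at or above the lowest of complex IV, which was CG32230. Without CG32230 the lowest was CoVb at 326 RPKM, and 2 complex I subunits reached it. Were CG32230 counted with complex I, its 460.3 RPKM in all polysomes would lie above 6 of the other complex IV subunits. The complex IV median was 3.63 times that of complex I in all polysomes and 2.93 times in mRNA. With 1 all-polysome library and 1 mRNA column, these levels have no replicate check.

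Within complexes I, II, III and V the subunits were most even in all polysomes or in mRNA and most uneven in a polysome fraction. The highest over the lowest subunit of complex I was 3.89-fold in all polysomes and 5.17-fold in mRNA, against 21.0-fold in extensive small, 12.1-fold in initial small and 11.1-fold in large polysomes. For ATP synthase it was 4.94-fold in all polysomes, 4.71-fold in mRNA and 21.4-fold in large polysomes. Complex IV, which holds no nuclear subunit over 200 aa here, spanned 1.98-fold in all polysomes and 2.58-fold in large polysomes, and was most uneven in mRNA at 4.51-fold, where CG32230 was lowest.

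**Figure D2:**
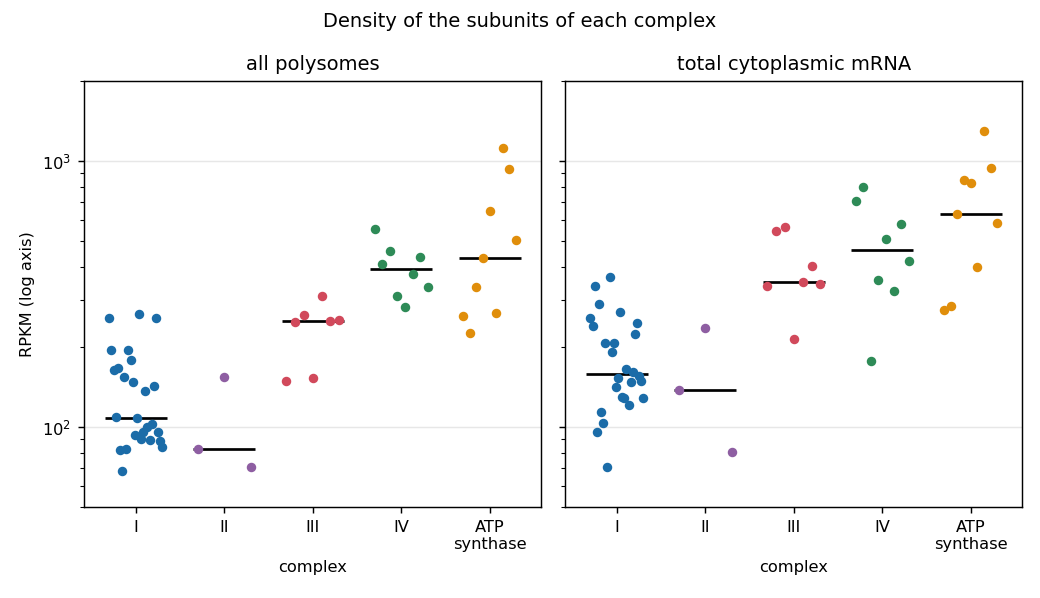
RPKM (log axis) of each subunit by complex in all polysomes (left) and total cytoplasmic mRNA (right), without CG15434, CG30354 and cytochrome c, with subunits set from short to long and bars at the medians. By the longest CDS of each gene, complex I ends at 267 RPKM and complex IV begins at 282 RPKM in all polysomes. Shorter mtacp1 CDSs of complex I, not drawn, had 308 and 292 RPKM there. In mRNA the 2 complexes overlap.

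The main comparison asked in which polysome fraction each subunit was denser. Most subunits were denser in small than in large polysomes, by a median log2 difference of 1.76 against -0.15 over all 7034 genes tested. Of 55 subunits tested (CG15434 failed the minimum mean of 1 RPKM), 24 were called higher in small polysomes and 2 lower, by limma on log2(RPKM + 1) at a Benjamini-Hochberg adjusted p under 0.05. Over all genes 8.52% were called higher and 4.66% lower. In both small-polysome libraries the density was above that of large polysomes for 44 of 55 subunits (39.1% of all genes) and below it for 9 (46.4%). It was at least 2-fold above in both for 36 subunits (18.8% of all genes) and at least 2-fold below in both for 5 (18.6%). The fit takes its spread from the small-polysome pair and the lone large-polysome library is assumed to vary like it. Without the filter on low values 1 subunit was called higher (0.238% of all genes). With RPKM rescaled to reads on the tested CDSs 39 were, and the share of all genes also rose, to 23.0%.

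The direction went with CDS length. Over 55 subunits the log2 difference and log2 length had a Pearson r of -0.86 and a Spearman rho of -0.80, against -0.65 and -0.66 over all genes. These are correlations across genes of the same libraries, and genes are not independent replicates. Up to 100 aa 9 of 12 subunits were called higher (53.5% of all genes of that length) and 10 lay above large polysomes in both libraries (87.6%). Over 100 to 200 aa 15 of 25 were called higher (34.7%), none was called lower (0.798%) and 25 lay above in both (89.4%). Over 200 to 400 aa none of 8 was called, against 7.55% called higher and 1.07% called lower among all genes of that length, and 8 lay above in both (54.8%). Over 400 aa 2 of 10 were called lower (7.54%), none was called higher (0.779%), and 1 lay above in both (17.6%). The exception, CG6020, is counterpart of human NDUFA9, an accessory complex I subunit.

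Set beside genes of their own length, the subunits differed less from the rest of the genome. Their median log2 difference was 2.42 up to 100 aa (2.14 over all genes), 2.01 over 100 to 200 aa (1.604), 1.02 over 200 to 400 aa (0.46) and -1.06 over 400 aa (-0.75). Without CG30354, which rested on few reads, the first median was 2.59. The smORF subunits exceeded the longer subunits by 0.86 in the median log2 difference. No test was run across the subunits of a class or of a complex. The differences given for single subunits are small minus large polysomes on the log2(RPKM + 1) scale, with limma's adjusted p over all genes tested.

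**Figure D3:**
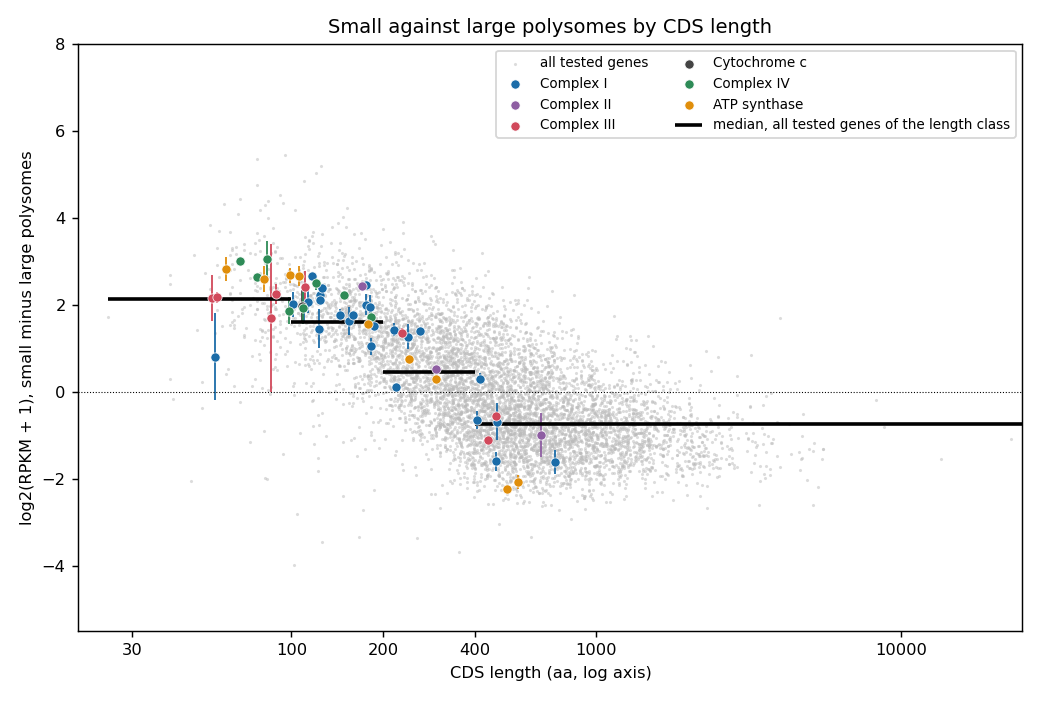
Log2 difference in RPKM + 1 between small and large polysomes (mean of both small-polysome libraries) against CDS length in aa (log axis) for 7034 tested genes in grey and 55 subunits coloured by complex. Vertical lines join the values of the extensive and initial libraries, and black bars give the medians of all tested genes in each length class, which fall from 2.14 to -0.75.

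Complex IV, cytochrome c oxidase, had the highest median of the complexes over all lengths, with a log2 difference of 2.37 over its 8 subunits, of which 5 were called higher. Both small-polysome libraries were above large polysomes for all 8. Among all tested genes this held for 87.6% up to 100 aa and 89.4% over 100 to 200 aa. In the same length classes 53.5% and 34.7% of all genes were called higher. The complexes differ in subunit length, and complex IV has none over 200 aa here. Over 100 to 200 aa its median of 2.08 (4 subunits) lay between 1.98 for complex I (16) and 2.11 for ATP synthase (2), and the lone subunits of complexes II and III in that range were at 2.43 and 2.42. CoVIII, the smORF counterpart of human COX8A at chr3L:21532172-21532454, minus strand in 2 CDS exons, had 1458 and 1319.8 RPKM in small polysomes against 173 in large polysomes, with 557 in all polysomes against 708 in mRNA. Its log2 difference was 2.996 ± 0.48 (SE, adjusted p = 0.0281), and it was the densest subunit of the complex in both small-polysome libraries and in all polysomes, while cype was in mRNA. The smORF cype, counterpart of human COX6C, had 838 and 785 RPKM in small polysomes, 129 in large polysomes, 411 in all polysomes and 798 in mRNA, a difference of 2.65 ± 0.48 (SE, adjusted p = 0.0318).

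CG32230, counterpart of human NDUFA4, which was first assigned to complex I and is now counted with complex IV in mammals, lies at chr3L:23332535-23334619, plus strand in 3 CDS exons. It had 960.4 and 539 RPKM in small polysomes against 86.2 in large polysomes, with 460.3 in all polysomes against 177 in mRNA. Its difference of 3.05 ± 0.55 (SE, adjusted p = 0.0310) was the highest of the 55 subunits, and unlike most of them it was denser in all polysomes than in mRNA. CG9603, counterpart of human COX7A, had 389 and 598 RPKM in small polysomes, 132 in large polysomes, 311 in all polysomes and 358 in mRNA for its 98 aa CDS, and its difference of 1.86 ± 0.52 (SE, adjusted p = 0.0514) just missed the threshold.

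Of the longer nuclear subunits of complex IV, 2 of 4 were called higher (34.7% of all genes over 100 to 200 aa). All 4 had both small-polysome values above the large-polysome value (89.4%). CoIV, counterpart of human COX4I1 and the longest of them at 182 aa, had 874 and 615 RPKM in small polysomes, 222 in large polysomes, 337 in all polysomes and 419.8 in mRNA, a difference of 1.72 ± 0.51 (SE, adjusted p = 0.0565). The least dense in all polysomes was levy, counterpart of human COX6A1, with 553 and 926 RPKM in small polysomes, 187 in large polysomes, 282 in all polysomes and 510.4 in mRNA. It came close to the threshold at 1.93 ± 0.53 (SE, adjusted p = 0.0509). CoVa and CoVb, counterparts of human COX5A and COX5B on the matrix side, were called higher at 2.23 ± 0.48 (SE, adjusted p = 0.0358) and 2.50 ± 0.49 (SE, adjusted p = 0.0333).

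ATP synthase subunits were called in both directions. Of its 9 subunits 4 were called higher (8.52% of all genes) and 2 lower (4.66%). By length, 53.5% of all genes up to 100 aa and 34.7% over 100 to 200 aa were called higher. Over 400 aa 7.54% were called lower. The called-lower pair were the alpha and beta subunits, which form the catalytic head. ATPsyn-beta, at chr4:1052516-1055039, plus strand in 3 CDS exons, had 351 and 313 RPKM in small polysomes against 1555 in large polysomes, with 935 in all polysomes against 941 in mRNA. Its log2 difference was -2.23 ± 0.48 (SE, adjusted p = 0.0359), the lowest of all subunits. The alpha subunit blw, at chr2R:18686709-18689197, plus strand in 4 CDS exons, had 219.8 and 274 RPKM in small polysomes against 1037 in large polysomes, with 507 in all polysomes against 587 in mRNA, a difference of -2.07 ± 0.49 (SE, adjusted p = 0.0408). For both genes the values of both small-polysome libraries lay well below that of large polysomes. Both calls were lost in limma with a pseudocount of 0.1 RPKM (adjusted p = 0.0617 for ATPsyn-beta and 0.0676 for blw) and with no filter on low values (adjusted p = 0.227 and 0.312), with the same direction throughout.

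The central stalk subunit ATPsyn-gamma, which turns within the head, was dense in every library. It had 1289 and 1399.7 RPKM in small polysomes, 1104 in large polysomes, 1121 in all polysomes and 1293 in mRNA, a difference of 0.28 ± 0.48 (SE, adjusted p = 0.682). The peripheral stalk subunits b and d lay on the side of small polysomes. ATPsyn-b had 536 and 504 RPKM in small polysomes, 306 in large polysomes, 268 in all polysomes and 401 in mRNA, a difference of 0.76 ± 0.48 (SE, adjusted p = 0.267), and ATPsyn-d had 1279 and 1079 RPKM in small polysomes, 397 in large polysomes, 649 in all polysomes and 827 in mRNA, a difference of 1.56 ± 0.49 (SE, adjusted p = 0.0627). Neither was called, though both small-polysome values exceeded the large-polysome value for each.

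Relative to gamma the subunits were ordered differently in each fraction. Beta stood at 0.273 and 0.223 times the density of gamma in extensive and initial small polysomes, 1.41 times in large polysomes, 0.834 times in all polysomes and 0.728 times in mRNA. Alpha stood at 0.171 and 0.196 times in small polysomes, 0.939 times in large polysomes, 0.452 times in all polysomes and 0.454 times in mRNA. Subunit d went the other way, at 0.992 and 0.771 times in small polysomes, 0.359 times in large polysomes and 0.579 times in all polysomes.

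The 3 smORF subunits of ATP synthase and its coupling factor were all called higher. The epsilon subunit sun, part of the central stalk, had 846 and 577 RPKM in small polysomes against 98.3 in large polysomes, with 261 in all polysomes against 275 in mRNA, a difference of 2.82 ± 0.51 (SE, adjusted p = 0.0312). The subunit g gene ATPsynG (its RefSeq symbol; the plot by subunit has its older lethal-locus name) encodes a membrane accessory subunit and had 1040.4 and 830.0 RPKM in small polysomes against 145 in large polysomes, with 338 in all polysomes against 632 in mRNA, a difference of 2.67 ± 0.49 (SE, adjusted p = 0.0318). The subunit e gene CG3321, also of the membrane sector, had 358 and 551 RPKM in small polysomes against 72.8 in large polysomes, with 227 in all polysomes against 286 in mRNA, a difference of 2.59 ± 0.52 (SE, adjusted p = 0.0334). Coupling factor 6, ATPsyn-Cf6, is a peripheral stalk part of 106 aa and had 719 and 989 RPKM in small polysomes against 133 in large polysomes, with 431 in all polysomes against 853 in mRNA, a difference of 2.66 ± 0.50 (SE, adjusted p = 0.0323). For each of the 4 genes both small-polysome values were at least 4 times the large-polysome value.

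Complex III, which passes electrons to cytochrome c, split between small accessory and large core subunits. Of 8 subunits 4 were called higher (8.52% of all genes) and none lower (4.66%). The shares called higher by length were 53.5% of all genes up to 100 aa, the class of 4 of these subunits, and 34.7% over 100 to 200 aa. The smORF ox, counterpart of human UQCR10 and the shortest subunit at 55 aa, had 148 and 309.6 RPKM in small polysomes against 47.6 in large polysomes, with 149 in all polysomes against 341 in mRNA. Its difference was 2.15 ± 0.58 (SE, adjusted p = 0.0494), with a 2-fold gap between the small-polysome libraries. CG14482, counterpart of human UQCR11, had 713 and 600.0 RPKM in small polysomes against 144 in large polysomes, with 249 in all polysomes against 548 in mRNA, a difference of 2.17 ± 0.49 (SE, adjusted p = 0.0373). CG7580, counterpart of human UQCRQ, had 391 and 543 RPKM in small polysomes against 95.9 in large polysomes, with 265 in all polysomes against 565 in mRNA, a difference of 2.25 ± 0.50 (SE, adjusted p = 0.0373). In all 3 the all-polysome density lay under 0.5 times the mRNA density.

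CG3560, the UQCRB counterpart, had the highest difference of the listed complex III subunits. Its values were 473 and 285 RPKM in small polysomes, 68.0 in large polysomes, 153 in all polysomes and 215 in mRNA, a difference of 2.42 ± 0.53 (SE, adjusted p = 0.0372). RFeSP, the Rieske iron-sulphur protein, was the densest of the listed complex III subunits in all polysomes, though cytochrome c1 (CG4769), outside the list, had 337 RPKM there. RFeSP had 538 and 619 RPKM in small polysomes, 225 in large polysomes, 310.3 in all polysomes and 352 in mRNA. Its difference of 1.36 ± 0.49 (SE, adjusted p = 0.0840) was not called. CG4169, one of the core proteins, had 165 and 173 RPKM in small polysomes against 368 in large polysomes, with 250.0 in all polysomes against 403 in mRNA, a difference of -1.12 ± 0.48 (SE, adjusted p = 0.126). CG3731, the other core protein, had a difference of -0.55 ± 0.48 (SE, adjusted p = 0.413). Both core proteins were below large polysomes in both small-polysome libraries, though neither passed the test. CG30354 had a difference of 1.70 ± 1.16 (SE, adjusted p = 0.297), which rested on the extensive library, as it had no read in initial small or large polysomes.

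Cytochrome c, the soluble carrier between complexes III and IV, is encoded by the single-exon CDS of Cyt-c-p at chr2L:16722050-16722376, plus strand. It had 314 and 533 RPKM in small polysomes against 104 in large polysomes, with 178 in all polysomes against 140.2 in mRNA, and was called higher in small polysomes with a difference of 1.97 ± 0.54 (SE, adjusted p = 0.0497).

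Complex I had 26 subunits tested, of which 9 were called higher (8.52% of all genes) and none lower (4.66%). In both libraries 21 were above large polysomes (39.1%). These shares span all lengths, while 16 of the 26 were over 100 to 200 aa. In that class 34.7% of all genes were called higher and 89.4% lay above in both libraries. Its highest difference was that of CG5548, an accessory subunit of 117 aa and counterpart of human NDUFB7. CG5548 had 437 and 457 RPKM in small polysomes against 69.9 in large polysomes, with 167 in all polysomes against 289.9 in mRNA, a difference of 2.66 ± 0.48 (SE, adjusted p = 0.0312). CG8680 followed a similar pattern at lower density, with 156 and 154 RPKM in small polysomes against 29.0 in large polysomes, with 83.1 in all polysomes against 70.8 in mRNA, a difference of 2.38 ± 0.48 (SE, adjusted p = 0.0334). CG6463, counterpart of human NDUFA5 and the least dense complex I subunit with reads in all polysomes, had 106 and 144 RPKM in small polysomes, 25.4 in large polysomes, 68.5 in all polysomes and 104 in mRNA, a difference of 2.24 ± 0.50 (SE, adjusted p = 0.0373). CG10320, counterpart of human NDUFB3, had 347 and 581 RPKM in small polysomes, 116 in large polysomes, 165 in all polysomes and 339 in mRNA, a difference of 1.95 ± 0.53 (SE, adjusted p = 0.0503) that just missed the threshold.

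The densest complex I subunit in all polysomes was mtacp1, the mitochondrial acyl carrier protein. It had 744 and 519.7 RPKM in small polysomes against 159 in large polysomes, with 267 in all polysomes against 271 in mRNA, a difference of 1.96 ± 0.51 (SE, adjusted p = 0.0458). The smORF CG18624, at chrX:7787163-7787333, minus strand and counterpart of human NDUFB1, was, apart from CG30354, the only subunit tested whose small-polysome libraries did not fall on one side of large polysomes. It had 84.3 RPKM in extensive and 336 RPKM in initial small polysomes, 95.8 in large polysomes, 257 in all polysomes and 256 in mRNA. Its difference was 0.81 ± 0.78 (SE, adjusted p = 0.459), and without the initial library it was -0.18.

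Core redox subunits of complex I fell on both sides of large polysomes. ND75, counterpart of human NDUFS1, holds iron-sulphur clusters and is the longest subunit, and lies at chrX:8142963-8145416, minus strand. It had 37.0 and 55.1 RPKM in small polysomes against 140.3 in large polysomes, with 84.4 in all polysomes against 128 in mRNA, a difference of -1.61 ± 0.51 (SE, adjusted p = 0.0645). CG9140, the NADH-binding flavoprotein counterpart of human NDUFV1, had 97.1 and 52.8 RPKM in small polysomes against 116 in large polysomes, with 89.1 in all polysomes against 149.6 in mRNA, a difference of -0.69 ± 0.55 (SE, adjusted p = 0.373). Both lay below large polysomes in both small-polysome libraries. ND23, counterpart of human NDUFS8 and a further iron-sulphur protein of 217 aa, lay above with 209 and 173 RPKM in small polysomes, 69.9 in large polysomes, 137 in all polysomes and 165 in mRNA, a difference of 1.43 ± 0.49 (SE, adjusted p = 0.0762). None of these 3 was called.

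Complex II, succinate dehydrogenase, has few subunits, and those here descended with length. The membrane anchor SdhC, of 171 aa, had 192 and 199 RPKM in small polysomes against 35.4 in large polysomes, with 82.6 in all polysomes against 138 in mRNA, and was called higher at 2.43 ± 0.48 (SE, adjusted p = 0.0334). The iron-sulphur subunit SdhB, of 297 aa, had 233 and 219 RPKM in small polysomes against 157 in large polysomes, with 155 in all polysomes against 235 in mRNA, a difference of 0.52 ± 0.48 (SE, adjusted p = 0.440). The flavoprotein SdhA, of 661 aa, had 27.2 and 56.0 RPKM in small polysomes against 79.0 in large polysomes, with 70.9 in all polysomes against 80.4 in mRNA, a difference of -0.997 ± 0.57 (SE, adjusted p = 0.228).

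Footprint density was then set against mRNA density. Translational efficiency (TE) was footprint RPKM over mRNA RPKM, for genes with mRNA above 0, and each library is scaled to its own total. In all polysomes most subunits had a lower TE than the middle of the genome, with a median of 0.727 against 1.05 over the genes tested. A TE above 1 was found for 7 of 54 subunits, against 48.6% of all genes with mRNA and 54% of those tested. Their log2 densities in all polysomes and mRNA had a Pearson r of 0.88 across 55 subunits, against 0.91 over all genes. With 1 footprint library and 1 mRNA column, TE has no replicate check. The reads that the mRNA values were divided by match the summed mapped reads of the study's 2 mRNA libraries, so the column appears to pool them.

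The listed subunits with a TE above 1 belonged to complexes I and IV and cytochrome c. CG32230 had the highest TE, 2.61, from 460.3 RPKM in all polysomes against 177 in mRNA. Cyt-c-p followed at 1.27, CG8680 at 1.17, CoVb at 1.16, CG12859 (counterpart of human NDUFB4) at 1.13, CG6020 at 1.05 and CG18624 just above the limit at 1.00. At the low end stood ox at 0.438, CG14482 at 0.453, CG7580 at 0.468 and CG10320 at 0.486, of which the first 3 are smORF subunits of complex III. In complex IV the lowest was cype at 0.516, in ATP synthase ATPsyn-Cf6 at 0.505 and in complex II SdhC at 0.598. The highest of the listed subunits were ATPsyn-beta at 0.994, RFeSP at 0.881 and SdhA at 0.882 in their own complexes. Outside the list, CG1746 of ATP synthase had a TE of 1.69 and CG4769 of complex III 1.37.

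**Figure D4:**
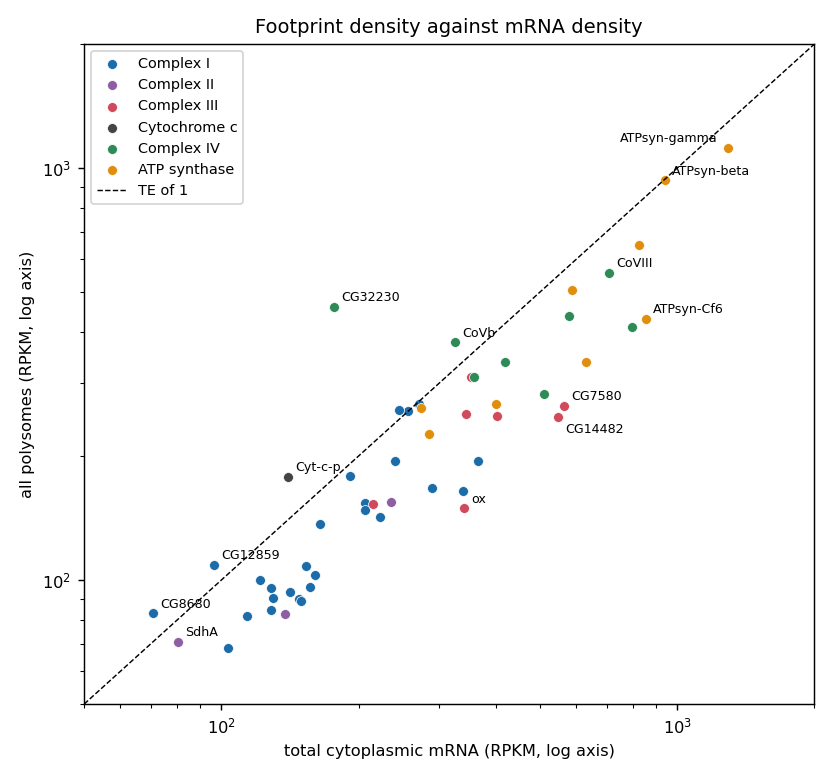
All-polysome RPKM against total cytoplasmic mRNA RPKM (both log axes) for the 54 subunits with mRNA above 0, coloured by complex, with a dashed line at a TE of 1. Of these, 47 lie below the line, and CG32230 lies farthest above it at a TE of 2.61.

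By fraction the order turned round. In initial small polysomes the median TE of the subunits was 1.30 against 0.812 over all genes tested, and 40 of 54 had a TE above 1 (33.6% of all genes with mRNA). The extensive library gave medians of 1.33 and 1.03. In large polysomes the median TE was 0.421 against 0.943, and 6 of 54 had a TE above 1 (41% of all genes). TE was higher in initial small than in large polysomes for 45 of 54 subunits. Both TEs divide by the same mRNA value, so this count only repeats the order of the footprint densities. The share of all genes was not computed for it. The smORF subunits had median TEs of 0.787 in all, 1.31 in initial small and 0.254 in large polysomes, and all genes of that length had 0.790, 1.20 and 0.276. Subunits over 400 aa had 0.696, 0.448 and 1.00, where all genes of that length had 1.18, 0.639 and 1.12. The smORF subunits lay near other smORFs in TE, while their all-polysome density, with a median of 263 RPKM, lay above the 42.9 RPKM of all tested smORF genes.

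The small-polysome experiments gave similar densities for most subunits. The median log2 difference of extensive over initial was 0.09, against 0.34 over all genes, and turned to -0.21 when both libraries were rescaled to reads on the tested CDSs. For 41 of 55 subunits the values lay within 1.5-fold. CG30354 was at least 2-fold higher in the extensive library (11.8% of all genes), and CG18624, ox and SdhA at least 2-fold lower (0.867%), with log2 differences of -1.98, -1.06 and -1.01. The pair had a Pearson r of 0.90 across subunits, below the 0.96 over all genes. For initial small against large polysomes r was 0.63 across subunits and 0.79 over all genes. Without CG30354 the 0.63 dropped to 0.36. All-polysome density lay between large polysomes and both small-polysome libraries for 47 of 55 subunits. All polysomes hold both fractions, so a value in between is no separate finding. The share of all genes was not computed for this count or for that within 1.5-fold.

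For 6 subunits the table held more than 1 distinct CDS, and for each of these genes all CDSs kept the direction of the longest. Reads on shared exons count for every CDS that holds them, so CDSs of a gene are not independent. The short ATPsyn-beta-RB, of 384 nt, had 277 and 337 RPKM in small polysomes, 1309 in large polysomes, 668 in all polysomes and 1040.0 in mRNA. It was thus on the side of large polysomes like the 1536 nt CDS, although most tested genes of 100 to 200 aa lay on the side of small polysomes. CG11455-RH, of 70 aa, had 468 and 269.8 RPKM in small polysomes, 71.5 in large polysomes, 199 in all polysomes and 264 in mRNA, and the 306 nt CDS of the same gene, counterpart of human NDUFS5, had 399.9 and 269.9 RPKM in small polysomes, 80.9 in large polysomes, 195 in all polysomes and 240.1 in mRNA with a difference of 2.01 ± 0.51 (SE, adjusted p = 0.0454).

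CG34439, counterpart of human NDUFA1, had 167 and 89.0 RPKM in small polysomes, 44.0 in large polysomes, 81.7 in all polysomes and 114 in mRNA for 123 aa, and 239 and 125 RPKM in small polysomes, 68.6 in large polysomes, 126 in all polysomes and 179.8 in mRNA for the 73 aa form. Its CDS shares 80 of 372 nt with TppII on the opposite strand, the only overlap with another CDS among the subunits, and whether the counting used strand was not given in the sources used here. The 57 aa sun-RB had 683 and 484 RPKM in small polysomes, 105 in large polysomes, 216 in all polysomes and 207 in mRNA, and the 89 aa CG9603-RA had 434 and 660.2 RPKM in small polysomes, 145 in large polysomes, 346 in all polysomes and 408 in mRNA. For mtacp1 the 143 aa form had 898 and 616 RPKM in small polysomes, 189.6 in large polysomes, 308 in all polysomes and 313 in mRNA, and the 152 aa form had 797 and 559 RPKM in small polysomes, 173 in large polysomes, 292 in all polysomes and 308 in mRNA. For each of these genes the short and long forms differed less than the fractions did.

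Upstream ORFs (uORFs), short reading frames ahead of the main CDS, were listed for 13 subunit genes. Of 24 distinct uORFs 16 were listed at 0 RPKM in every footprint library, though 7 of these 16 had a coverage above 0 in a library and 3 a coverage of at least 0.57, so a listed 0 does not mean that no footprint lay there. The uORF of CG7580, of 11 aa at chr3L:17468157-17468189, had the highest density and was singled out after its values were seen. It had 963 RPKM (291 reads) in extensive and 353 RPKM (64 reads) in initial small polysomes, 46.2 RPKM (4 reads) in large polysomes and 180.5 RPKM (19 reads) in all polysomes. It passed the criteria for translation in all of these but large polysomes, where its coverage was 0.273. At 33 nt it is about as long as a single footprint, so the coverage limit could be met at 1 position and says little here. It overlaps no CDS of another gene and ends 330 genomic nt ahead of the CDS of CG7580. A uORF of CG3192, which overlaps a CDS of another gene, had 133 and 17.7 RPKM in small polysomes at coverages of 0.640 and 0.627, 15.9 in large and 4.35 in all polysomes. A uORF of CoVa had 138 and 37.4 RPKM in small polysomes at coverages of 0.434 and 0.212, 0 in large and 17.2 in all polysomes. Reads were not recovered for these uORFs of several parts, so the criteria were not applied to them.

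The remaining genes of the pathway were read from a list of 23 nuclear names, of which 21 were found and 10 tested. Of these 3 were called higher in small polysomes (8.52% of all genes) and none lower (4.66%), with a median difference of 1.71. Most of the 10, and all 3 called, are over 100 to 200 aa, where 34.7% of all genes were called higher. The called genes were CG3214 and CG9350 of complex I and CG4692 of ATP synthase, at 2.66 ± 0.48 (SE, adjusted p = 0.0312), 1.99 ± 0.49 (SE, adjusted p = 0.0433) and 2.55 ± 0.50 (SE, adjusted p = 0.0333). CG1746, the proton-carrying c subunit of ATP synthase, was the densest gene of the pathway in all polysomes with 1663 and 2447 RPKM in small polysomes, 993 in large polysomes, 1424 in all polysomes and 841 in mRNA, and had a TE of 1.69. CG4769, cytochrome c1 of complex III, had 487 and 424 RPKM in small polysomes, 430.4 in large polysomes, 337 in all polysomes and 246 in mRNA, a TE of 1.37 and a difference of 0.08 ± 0.49 (SE, adjusted p = 0.916). The 11 genes not tested, several of them paralogues such as Cyt-c-d, were all under 1 RPKM in all polysomes. The 13 mitochondrially encoded subunits were listed without values.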

How the data were processed

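Ribosome footprints (4 libraries) and total cytoplasmic mRNA (1) of S2 cells were analysed. The authors discarded reads that Bowtie aligned to rRNA or tRNA. TopHat then aligned what remained to FlyBase Release 5.50 with at most 2 mismatches, and unique matches were kept. Tool versions are not given in the sources used here. The deposited values are RPKM per CDS and coverage as a fraction of the CDS. The mRNA column appears to pool the study's 2 mRNA libraries. The table of ORFs in ncRNAs was not used.

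RPKM steps gave whole reads for 100% of CDSs (tolerance 0.05). CDSs with a mean of at least 1 RPKM over the 4 footprint libraries were tested with limma 3.58.1 in R 4.3.3 (lmFit and eBayes, two-sided, 1 residual degree of freedom and 6.89 prior degrees of freedom), small minus large polysomes on log2(RPKM + 1), which understates changes of low genes. Summaries used Python 3.11.15 and pandas 2.3.3. On simulated data of 7034 genes with 200 changed, 2-fold changes were called in 3%, 4-fold in 85.5% and 8-fold in 100%. Of unchanged genes 0.19% to 0.60% were called. The simulation gave all genes and all 4 libraries a single spread, that of the small-polysome pair, and only raised genes of higher mean density. It therefore cannot check whether the lone large-polysome library varies like that pair.

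All subunits were counted. The single values of 1 subunit are not reported here, and it is left out of the plot by subunit. Named with values were those of at most 100 aa, the extremes of each complex in all-polysome RPKM, small-large difference and TE, those failing a translation criterion, a fixed set of catalytic, redox and ATP synthase subunits, and those with several CDSs. The uORFs of CG7580, CG3192 and CoVa, and the genes CoVa, CoVb, CG12859, CG6020 and CG3731 were named after values were seen. Subunits and gene lists were chosen with earlier results of these data known. For uORFs 11021 of 11587 transcripts matched a gene by FlyBase identifier in the BDGP6 annotation, of which no coordinates were used.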

Additional observations from a re-analysis of the deposited data

How the results depend on the processing

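The shortest CDSs rested on the fewest positions, the large-polysome library had no replicate, and the fit had 1 residual degree of freedom, and counts of calls moved widely while directions held, except for CG18624, and for CG30354, which was 0 without the extensive library. The 24 subunits called higher became 3 with a pseudocount of 0.1 RPKM, 1 with no filter on low values (20 at an unadjusted p under 0.05), 39 after rescaling to reads on the tested CDSs, 0 with every distinct CDS entered (43 higher at an unadjusted p under 0.05, smallest adjusted p 0.0910 by limma) and 39 with limma's voom on recovered reads, an alternative chosen after seeing the data. The 3 other pathway genes called became 6 with a pseudocount of 5 RPKM (8.03% of all genes) and 7 with a minimum of 5 RPKM (14.8%). They became 0 with no filter (0.238%), 8 after rescaling (23.0%), 0 with every distinct CDS (0%) and 9 with voom (18.03%). The same shares of all genes belong to the subunit counts, with 3.82% at a pseudocount of 0.1 RPKM. The cause was not tested. The planned count models were not run, since the values are RPKM.

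The median log2 difference of the subunits (1.76) was 1.87 with a pseudocount of 0.1 RPKM, 2.09 after rescaling, 1.86 with every distinct CDS, 2.11 with voom and 1.69 to 1.76 with 1 small-polysome library left out. Rescaling moved the median of all genes from -0.15 to 0.16, and the subunits exceeded it by 1.91 before and 1.93 after. The excess of smORF over longer subunits (0.86) was 1.06 with a pseudocount of 0.1 RPKM, 0.69 with no filter, 0.71 with every distinct CDS, 0.69 with a limit of 80 aa and 0.92 to 1.07 with 1 library left out. That of complex IV over complex I (0.79) was 0.54 with every distinct CDS, 0.60 with CG32230 counted in complex I and 0.67 to 0.86 with 1 library left out. The median TE was 0.786 in all polysomes after rescaling and 1.33 in small polysomes with the extensive library. CG18624 was -0.18 without the initial library and 1.80 without the extensive one, and no other subunit reversed. From 45 to 54 subunits passed the translation criteria under the other limits.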
